A study of Mus musculus with 39 samples.

Results

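Basolateral amygdala (BLA) and hippocampal tissue of untrained control mice was compared gene by gene, to describe how gene expression differed between these regions without pathology or fear training. The comparison used 10 of the 39 libraries of the series: 5 BLA and 5 hippocampal libraries whose labels name a control genotype and a naive state. Both groups were female mice aged 9 months that carried CaMKIIα-Cre and RiboTag+/- and neither the APP nor the Tau transgene, and that were killed without conditioning. CaMKIIα-Cre drives recombination in glutamatergic neurons of the postnatal forebrain, and RiboTag then puts an HA tag on the ribosomal protein encoded by Rpl22. The libraries were made from the input fraction, that is, poly(A) RNA of the cleared homogenate before any pull-down, so they report all cell types of the dissected tissue. The BLA was taken with a 1 mm punch (4 punches per mouse, from 2 coronal slices of 300 µm), and the hippocampi of both sides were cut out with a scalpel from 8 slices. BLA libraries started from 10 ng of RNA and hippocampal libraries from 50 ng. Region, dissection, RNA input and sequencing depth therefore changed together and cannot be told apart.

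The BLA is a cortex-like nucleus in which glutamatergic projection neurons and scattered GABAergic interneurons link sensory cues to emotional responses, and it is bordered by intercalated cell clusters, the central amygdala and the striatum, whose neurons are mostly GABAergic. The hippocampus is a chain of glutamatergic cell fields, from the granule cells of the dentate gyrus through CA3 and CA2 to CA1, that serves spatial and contextual memory. It lies against the choroid plexus of the lateral ventricle and carries white matter of its own, the alveus and the fimbria. Neuropeptides, the monoamine receptors and the receptors for stress steroids are classical features in which amygdala and hippocampus are known to differ.

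BLA libraries held 54.4 to 74.3 M counts and hippocampal libraries 95.4 to 118.3 M, without overlap (exact permutation test, two-sided, p = 0.00794, the smallest p that 5 against 5 allows). The share of mitochondrially encoded genes was 1.77 to 3.93% for BLA tissue and 2.97 to 3.91% for hippocampal tissue. BLA replicate 1 stood apart from the other BLA libraries, with 26442 genes that had a count against 28180 to 28692, and with 69.0% even numbers among counts of 1 to 20 against 60.1 to 61.9%. Hippocampal replicate 1 held 5.18% of its counts in Rn18s-rs5, a sequence related to 18S ribosomal RNA, against 0.0497 to 0.17% in the other hippocampal libraries. Results that moved by more than 1.5 times without these libraries are given with and without them.

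The tables of the regions also differed in which copy of a multicopy gene held the counts. Over all 39 libraries, 24 features had at least 5 CPM (counts scaled to library size) in every hippocampal library and under 0.5 CPM in every BLA library, and 22 of these were pseudogenes. In the other direction 4 features, all pseudogenes, met the same limits. Rpl10-ps5 ranged from 19.4 to 28.0 CPM in the BLA and from 0.0724 to 0.307 CPM in the hippocampus, while the parent gene Rpl10 was at 23.1 against 59.6 CPM (log2 fold change -1.37 ± 0.070). Rps23rg1, a retrogene copy of Rps23, was at 9.21 against 0.377 CPM, while Rps23 itself was at 2.36 against 8.48 CPM. How the counting of each table treated reads that match several copies is not given in the sources used here, so for genes with close copies or overlapping transcripts region and counting cannot be told apart. Among genes named below, this makes the values uncertain for Ccdc3 (65.2% of its 50-base transcript windows also occur in another annotated gene), C1ql3 (61.7%), Drd5 (47.8%), Gbx2 (42.2%), Kcnj3 (29.3%), Bace1 (28.5%), Slc32a1 (23.6%), Cox7c (22.1%) and Hes5 (21.8%). Il16, Ccn2, Htr1b, Pcp4, Lypd1, Meis1, Lhfpl3, Csf1r, Bdnf, Grin2a and Aldh1l1 shared between 10.02% and 17.5%, and the ribosomal protein genes Rpl10 (33.5%), Rpl10-ps5 (86.9%) and Rps23 (37.6%) also shared windows.

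Of 50559 gene symbols, 22797 passed the filter on low counts. At an adjusted p under 0.05, 10915 of them (47.9%) differed between the regions, with 5465 (24.0%) higher in the BLA and 5450 (23.9%) higher in the hippocampus. With a change of at least 2-fold as well, 1606 (7.04%) were higher in the BLA and 1858 (8.15%) in the hippocampus. Among 15740 protein-coding genes 51.8% were called in either direction, 25.5% higher in the BLA and 26.3% higher in the hippocampus, and the shares were 4.35% (684 genes) and 6.51% (1024 genes) at 2-fold or more, and among 2171 pseudogenes they were 25.6% (556) and 10.2% (221). All counts of list members below are to be read against these shares. In what follows ± is the SD over 5 libraries for levels and the SE for log2 fold changes, a positive log2 fold change means higher in the BLA, and "called" means an adjusted p under 0.05 over all genes tested. The labels number the libraries of a group but do not say how each relates to a mouse, and the p-values measure the spread between these libraries, which the fit takes as independent.

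Most listed markers of BLA projection neurons, dentate granule cells, and CA1 and CA3 pyramidal cells were called higher in their own region. The lists were chosen with earlier results of these data known. Of 16 genes that mark BLA projection neurons, 12 were called higher in the BLA and 2 in the hippocampus, with a median log2 fold change of 0.745 against -0.017 over all genes. Of 15 genes of dentate granule cells, 14 were called higher in the hippocampus, with a median of -2.171. For CA1 pyramidal cells 8 of 11 were called higher in the hippocampus (median -1.375), and for CA3 pyramidal cells 7 of 10 (median -0.976).

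Cyp26b1, an enzyme that breaks down retinoic acid, had the largest difference on the BLA list. It was at 249, 272, 209.5, 286 and 243 CPM in BLA replicates 1 to 5 and at 25.3, 18.9, 10.1, 15.8 and 15.9 CPM in the hippocampal replicates (log2 fold change 3.87 ± 0.20 SE, adjusted p = 3.89e-09). Every BLA library lay above every hippocampal one, by a wide margin. Otof, which encodes the vesicle protein otoferlin, was at 54.1 ± 8.28 against 6.20 ± 1.29 CPM (log2 fold change 3.12 ± 0.14 SE, adjusted p = 1.68e-09). Nr2f2, the nuclear receptor COUP-TFII, was at 148 ± 28.6 against 31.8 ± 3.86 CPM (2.22 ± 0.13). Rspo2, an R-spondin that strengthens Wnt signalling and marks a class of BLA projection neurons, was at 36.1, 52.4, 39.2, 63.4 and 52.6 CPM in the BLA and at 18.2, 20.8, 21.2, 19.04 and 16.8 CPM in the hippocampus (log2 fold change 1.34 ± 0.13 SE, adjusted p = 2.44e-06), so the groups did not overlap but hippocampal tissue held the transcript in every library. Smaller differences were called for Mef2c (0.81), Lmo3 (0.68), Etv1 (0.58), Cdh13 (0.47) and Tbr1 (0.41). Fezf2 (-0.46) and Rorb (-0.31) were called in the opposite direction, and Bdnf (-0.08) and Grp (-0.15) were not called. In trained controls the calls of Etv1 (adjusted p = 0.107), Tbr1 (0.337), Fezf2 (0.248) and Rorb (0.113) were lost, and without BLA replicate 1 Grp was called higher in the hippocampus (adjusted p = 0.0185).

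In the dentate list the desmosome gene Dsp separated the tissues most clearly. Its level was 0.337, 0.219, 0.139, 0.429 and 0.333 CPM in the BLA libraries and 44.1, 56.5, 35.96, 47.8 and 42.8 CPM in the hippocampal ones (log2 fold change -7.29 ± 0.20 SE, adjusted p = 2.36e-11). Lct, which encodes lactase, was at 1.35, 0.768, 0.433, 0.297 and 0.407 CPM in the BLA against 38.96, 52.3, 32.3, 51.95 and 39.6 CPM (log2 fold change -6.05 ± 0.29 SE, adjusted p = 2.47e-09). Both genes were thus near 0 in all 5 BLA libraries. Prox1, the homeodomain factor that sets granule cell identity, was at 12.2, 13.8, 13.7, 11.7 and 12.4 CPM in the BLA and at 130.2, 168, 118, 145 and 123 CPM in the hippocampus (log2 fold change -3.42 ± 0.10 SE, adjusted p = 4.1e-11). The BLA libraries held Prox1 within a narrow range, far below the hippocampal level. C1ql2 (-3.90), Il16 (-3.54) and Tdo2 (-4.15) followed. Calb1, which encodes calbindin and which granule cells share with many other neurons, was the 1 member called higher in the BLA (153 against 125 CPM, 0.30 ± 0.093), a call lost with all 39 libraries (adjusted p = 0.235) and without both libraries of number 3 (0.0513) or 5 (0.0521).

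Among CA1 genes Fibcd1 was at 12.3 ± 2.16 against 145 ± 26.2 CPM (log2 fold change -3.56 ± 0.15 SE, adjusted p = 7.51e-10), with hippocampal replicate 2 lowest at 98.9 CPM, and the POU factor Pou3f1 was at 12.1 against 92.9 CPM (-2.94 ± 0.11). Gpr161 (-1.81), Neurod6 (-1.38) and Mpped1 (-1.15) were also called higher in the hippocampus. Wfs1, the wolframin gene often used to mark CA1, went the other way, at 272, 358, 427, 348 and 312 CPM in the BLA and 124, 102, 112, 146 and 143 CPM in the hippocampus (log2 fold change 1.45 ± 0.12 SE, adjusted p = 4.99e-07). Its groups did not overlap. Of 10 CA3 genes, Grik4, a high-affinity kainate receptor subunit (-1.74), Trps1 (-1.34) and Iyd (-3.85; -5.13 without BLA replicate 1) were called lower in the BLA and Coch higher (1.27). The 8 CA2 genes split, with 3 called higher in the BLA (Ccdc3 1.29, Cacng5 1.27, Pcp4 0.65) and 4 higher in the hippocampus, among them the signalling scaffold Rgs14 (-0.38). At 2-fold or more, 2 CA2 genes were called on each side, and the median of the list was -0.22. Of 6 hilar mossy cell genes, 2 were called higher in the BLA and 1 in the hippocampus.

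**Figure D1:**
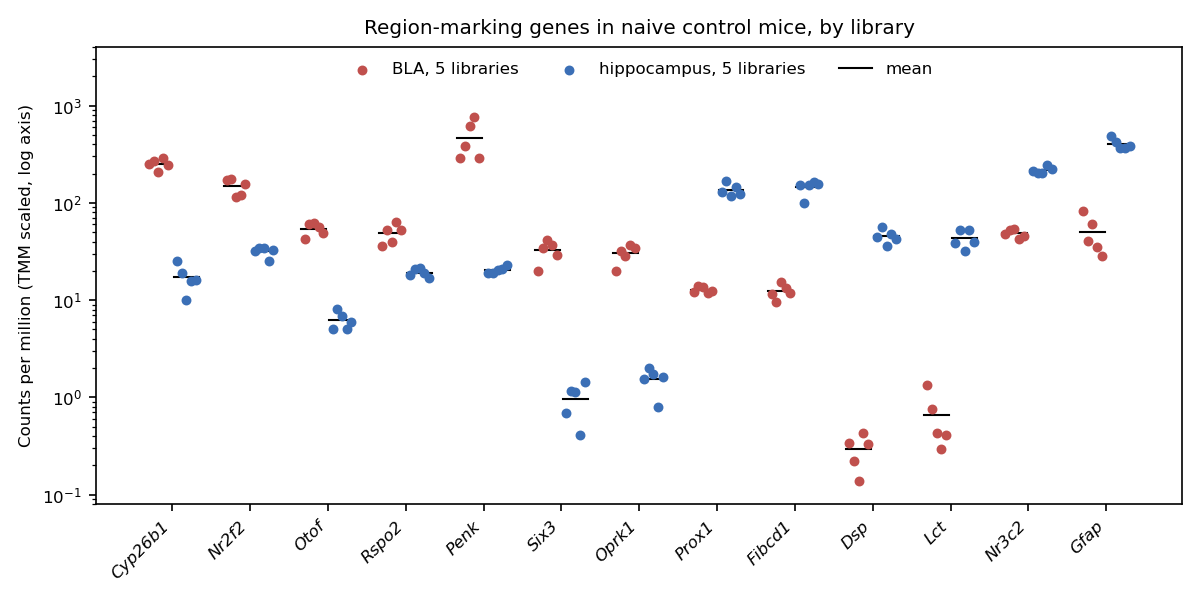
Level of 13 genes in CPM with TMM factors, on a log axis, for each of the 5 BLA libraries (red) and the 5 hippocampal libraries (blue), with the mean as a line. Cyp26b1, Nr2f2, Otof, Rspo2, Penk, Six3 and Oprk1 lie higher in every BLA library, and Prox1, Fibcd1, Dsp, Lct, Nr3c2 and Gfap lie higher in every hippocampal library.

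Transcription factors that pattern the forebrain split the regions on a broad front. Of 53 tested, 50 were called, 21 higher in the BLA and 29 higher in the hippocampus. On the BLA side were Dlx6 (12.5 against 2.19 CPM, 2.51 ± 0.16), Foxp2 (2.15), Meis1 (1.95), Meis2 (1.74) and Tshz1 (1.33). Foxp2, Meis2 and Tshz1 also stand on the list of striatal, central amygdala and intercalated neurons described below. The part of such neurons in these differences was not tested. On the hippocampal side, Zbtb20, a zinc finger factor needed for CA1 identity, was at 74.6, 55.5, 63.7, 57.3 and 59.03 CPM in the BLA and 364, 399.9, 357, 404 and 345 CPM in the hippocampus (log2 fold change -2.59 ± 0.084 SE, adjusted p = 7.69e-11), without overlap. Neurod1 (-3.48), Zic2 (-2.06), Emx2 (-1.74), Neurod2 (-1.39), Pou3f3 (-1.30) and Bcl11a (-1.26) were higher in the hippocampus as well. The nuclear factor I family moved together, with Nfix at 102 against 338 CPM (-1.73 ± 0.069), Nfib at 63.97 against 207 CPM (-1.70 ± 0.10) and Nfia at 29.99 against 66.04 CPM (-1.14 ± 0.065). Lhx2 (-0.61) differed less.

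Genes of neurons and tissues that border each dissection differed as well. All 19 genes listed for striatal, central amygdala and intercalated neurons were called higher in the BLA (median 2.148), and 17 of them did not overlap between groups, against 18.1% of all genes that lay apart with the BLA higher. The summed level of the list was 1134, 1839.5, 2419, 2423 and 1403 CPM in BLA replicates 1 to 5 and 435, 457, 426, 423 and 456 CPM in the hippocampal replicates. The BLA libraries thus differed among themselves, with replicates 1 and 5 lowest, while the hippocampal libraries were alike. Adora2a, the adenosine receptor of indirect-pathway striatal neurons, was lowest in replicates 1 and 5 as well, at 14.1, 60.5, 87.1, 80.1 and 21.7 CPM in the BLA and 0.821, 2.22, 1.73, 1.41 and 2.27 CPM in the hippocampus (log2 fold change 4.95 ± 0.50 SE, adjusted p = 2.52e-06). Six3, a homeobox factor of striatal neurons, was at 32.4 ± 8.37 against 0.960 ± 0.406 CPM (5.07 ± 0.29), and Ppp1r1b, which encodes DARPP-32, at 210.5 ± 97.3 against 53.6 ± 4.35 CPM (1.97 ± 0.26). The summed BLA projection neuron list did not follow that order, at 1649.6, 1688, 1409, 1511 and 1645 CPM in the BLA replicates.

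Isl1, a LIM factor of striatal and central amygdala neurons, was at 4.01, 3.95, 4.02, 3.50 and 0.981 CPM in the BLA and 0, 0.0174, 0.0163, 0.0178 and 0.122 CPM in the hippocampus. Hippocampal replicate 5 alone held over 0.1 CPM, and without it the log2 fold change moved from 6.46 to 7.77. In trained control mice, a separate set of 5 BLA and 6 hippocampal libraries, the striatal genes were higher in the BLA as well, by 5.78 for Adora2a and 6.52 for Six3 on the log2 scale.

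On the hippocampal side, 11 of 12 choroid plexus genes, all 6 ependymal genes and all 11 meningeal genes were called, with medians of -4.185, -1.926 and -2.016. Ttr, the transthyretin made by choroid plexus epithelium, was at 1.95, 0, 0, 0.280 and 1.15 CPM in the BLA and 252, 710.5, 618, 322 and 892 CPM in the hippocampus (log2 fold change -9.79 ± 0.72 SE, adjusted p = 1.3e-07). It was at 0 in 2 BLA libraries, and hippocampal replicates 1 and 4 were the lowest of their region. Without BLA replicate 1 its log2 fold change was -10.73. Otx2, a homeobox factor of the choroid plexus, had 0 counts in all BLA libraries and a mean of 4.83 ± 1.58 CPM in the hippocampus, at least 481-fold higher with a floor of 3 counts over the BLA group. Tmem212, a gene of ciliated cells, likewise had 0 counts in the BLA and 1.14 ± 0.554 CPM in the hippocampus, at least 114-fold higher. Enpp2, which choroid plexus and oligodendrocytes both make, was at 99.95 against 422 CPM (-2.08 ± 0.18). Among meningeal genes Ogn (0.572 against 9.57 CPM), Lum (0.345 against 5.09 CPM) and Dcn (5.07 against 31.3 CPM), which encode small proteoglycans, were higher in the hippocampus. Myoc, a secreted protein gene outside these lists and near absent from every BLA library of the series, was at 0.450, 0, 0.0693, 0.181 and 0.0370 CPM in the BLA and 13.9, 32.7, 10.5, 10.5 and 17.9 CPM in the hippocampus (log2 fold change -6.93 ± 0.56 SE, adjusted p = 3.43e-07; -7.91 without BLA replicate 1).

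Of 10 thalamic neuron genes, 8 were called higher in the hippocampus and none higher in the BLA (median -0.874). Lhx9 was at 1.63 ± 1.13 against 21.4 ± 2.54 CPM (-3.73 ± 0.38), Zic1 at 5.47 ± 2.08 against 26.2 ± 10.1 CPM (-2.26 ± 0.27) and Tcf7l2 at 4.85 ± 1.22 against 18.9 ± 5.48 CPM (-1.96 ± 0.22), while Rgs16 (-0.24) and Gbx2 (-0.32) were not called. The 8 genes of claustrum, endopiriform and deep cortex neurons gave 2 calls in the BLA (Nxph4 1.40, Gnb4 1.11) and 6 in the hippocampus, among them Nr4a2 (-1.14) and Ccn2 (-1.62; -0.556 and not called in trained controls). Of 6 upper layer cortex genes, 4 were called higher in the BLA, with Cux2 at 57.7 against 26.6 CPM (1.12 ± 0.12), and Mdga1 was called higher in the hippocampus (-0.92). How much tissue of each neighbour a library held was not measured, and in bulk tissue fewer cells of a type and less RNA per cell cannot be told apart.

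**Figure D2:**
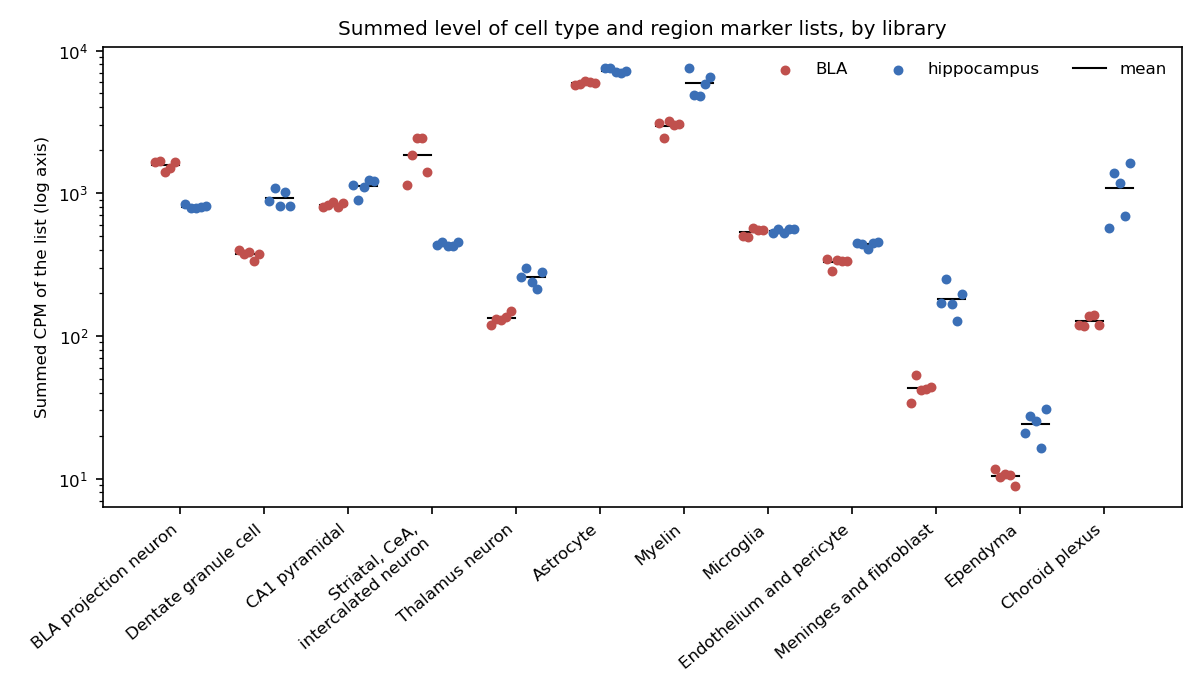
Summed level in CPM, on a log axis, of 12 marker lists in each of the 5 BLA (red) and 5 hippocampal (blue) libraries, with the mean as a line. The striatal, central amygdala and intercalated list spans 1134 to 2423 CPM in the BLA and 423 to 457 CPM in the hippocampus, the choroid plexus list is higher in every hippocampal library, and the microglial list overlaps between the regions.

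Neuropeptide genes were higher in the BLA. Of 26 tested, 18 were called higher in the BLA and none higher in the hippocampus, with a median log2 fold change of 0.931. Without BLA replicate 1, Chgb (adjusted p = 0.0257) and Grp (0.0185) were called higher in the hippocampus, and Chgb also in trained controls (0.0291). In all, 12 differed by 2-fold or more. Penk, the precursor of the enkephalins, was at 287, 381, 612, 769 and 287 CPM in BLA replicates 1 to 5 and at 18.8, 18.9, 20.4, 20.8 and 23.1 CPM in the hippocampal replicates (log2 fold change 4.52 ± 0.27 SE, adjusted p = 1.73e-08). Pdyn, the dynorphin precursor, was at 67.4, 90.9, 136, 90.4 and 63.5 CPM against 13.7, 21.03, 13.5, 18.6 and 13.4 CPM (log2 fold change 2.48 ± 0.20 SE, adjusted p = 3.36e-07). Neither gene overlapped between regions, and in the BLA both were spread more widely than in the hippocampus. Penk and Tac1 belong to the striatal list too, and the summed level of that list moved with region as given above; its part in the peptide results was not tested.

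Crh, corticotropin-releasing hormone, a peptide of the stress response, was at 4.74, 7.38, 8.87, 8.64 and 4.88 CPM in the BLA and 1.42, 1.97, 1.61, 1.33 and 1.46 CPM in the hippocampus (log2 fold change 2.15 ± 0.20 SE, adjusted p = 1.23e-06). Tac2, the neurokinin B precursor, was at 21.5 ± 7.69 against 3.59 ± 1.21 CPM (2.58 ± 0.28), and Cartpt, the precursor of CART, at 18.5, 10.9, 10.4, 9.15 and 8.07 CPM against 1.07, 1.19, 1.23, 1.11 and 1.67 CPM (log2 fold change 3.18 ± 0.22 SE, adjusted p = 8.19e-08). BLA replicate 1 was the highest BLA library for Cartpt, and all BLA libraries lay above all hippocampal ones. Sst, the somatostatin precursor, was at 404, 233, 255, 237 and 284 CPM against 157, 119, 141, 152 and 149 CPM (log2 fold change 0.98 ± 0.14 SE, adjusted p = 4.87e-05), and Npy at 52.96 ± 8.56 against 25.4 ± 4.63 CPM (1.06 ± 0.13). The granin family of vesicle proteins was divided: Scg2 was at 457 ± 58.8 against 228 ± 15.6 CPM (1.00 ± 0.081), Vgf at 423 against 201 CPM (1.07 ± 0.088) and Chga at 206 against 136 CPM (0.60 ± 0.094), while Chgb, at 595 against 665 CPM (-0.16 ± 0.071), was not called. Cck (0.15), Vip (0.36) and Grp (-0.15) were not called either, though Vip was called higher in the BLA with DESeq2 (adjusted p = 0.046) and without BLA replicate 3 (0.0187). Trh, thyrotropin-releasing hormone, was at 3.09 against 0.392 CPM (2.96 ± 0.32), but in the trained controls its log2 fold change was 1.08 with an adjusted p of 0.288. Oxt, Avp and Hcrt did not pass the filter on low counts.

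The promoters of 4 neuropeptide genes are shown because peptide genes are the textbook targets of CREB, the factor that binds the cAMP response element TGACGTCA and links neuronal activity to transcription. The palindrome, which reads alike on both strands, was searched in the 250 bases before the annotated start, from RefSeq promoter sequences of build GRCm38.p6. It was found in 4 of 24 listed neuropeptide genes with a sequence (16.7%) and in 478 of 27025 genes in all (1.77%). The motif was chosen with this list in mind, and the 27025 genes include genes not tested here. No test compared these shares. Each sequence is written 5′ to 3′ on the strand of its gene, with the element in capitals.
Sst, chr16:23890845-23891094, minus strand, element 48 bases upstream: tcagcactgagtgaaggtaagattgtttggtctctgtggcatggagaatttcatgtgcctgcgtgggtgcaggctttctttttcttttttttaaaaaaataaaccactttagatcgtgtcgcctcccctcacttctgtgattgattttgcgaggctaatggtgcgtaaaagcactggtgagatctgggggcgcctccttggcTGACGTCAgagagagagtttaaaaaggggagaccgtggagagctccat
Cartpt, chr13:99900684-99900933, minus strand, element 112 bases upstream: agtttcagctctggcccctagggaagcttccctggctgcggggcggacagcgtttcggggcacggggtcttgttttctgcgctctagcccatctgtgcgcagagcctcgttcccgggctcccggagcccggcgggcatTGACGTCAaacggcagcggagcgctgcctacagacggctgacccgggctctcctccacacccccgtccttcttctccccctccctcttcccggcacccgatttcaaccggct
Scg2, chr1:79440027-79440276, minus strand, element 68 bases upstream: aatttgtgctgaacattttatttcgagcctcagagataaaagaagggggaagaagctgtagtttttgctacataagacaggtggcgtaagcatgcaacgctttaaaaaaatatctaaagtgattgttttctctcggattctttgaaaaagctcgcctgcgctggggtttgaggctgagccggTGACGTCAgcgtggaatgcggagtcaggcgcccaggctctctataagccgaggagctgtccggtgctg
Chgb, chr2:132781392-132781641, plus strand, element 72 bases upstream: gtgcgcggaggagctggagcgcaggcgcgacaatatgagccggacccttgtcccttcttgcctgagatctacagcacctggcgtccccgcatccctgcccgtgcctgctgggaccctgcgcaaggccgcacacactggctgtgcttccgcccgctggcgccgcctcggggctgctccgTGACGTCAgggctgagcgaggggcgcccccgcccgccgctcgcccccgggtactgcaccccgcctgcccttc
Of these 4 genes, Sst (0.98), Cartpt (3.18) and Scg2 (1.00) were called higher in the BLA and Chgb (-0.16) was not called. A match describes the letters in this window and not binding of a factor.

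Receptors for peptides did not all follow the peptides. Of 31 tested, 16 were called higher in the BLA and 8 higher in the hippocampus, and the 12 that differed by 2-fold or more were all on the BLA side. Oprk1, the kappa receptor for dynorphin, was at 20.04, 32.1, 28.5, 37.1 and 34.6 CPM in the BLA and 1.55, 1.99, 1.73, 0.792 and 1.62 CPM in the hippocampus (log2 fold change 4.31 ± 0.23 SE, adjusted p = 5.43e-09). Npsr1, the receptor for neuropeptide S, was at 12.02, 21.1, 26.8, 35.9 and 35.3 CPM against 2.05, 2.98, 2.43, 1.59 and 2.60 CPM (log2 fold change 3.49 ± 0.27 SE, adjusted p = 2.38e-07). The lowest BLA library lay far above the highest hippocampal one for both. The mu and delta opioid receptors followed with smaller differences, Oprm1 at 3.83 against 1.38 CPM (1.47 ± 0.22) and Oprd1 at 59.5 against 24.00 CPM (1.31 ± 0.14), and the nociceptin receptor Oprl1 with 0.74 ± 0.065. Thus all 4 opioid receptor genes were called higher in the BLA. Tacr1, the substance P receptor (17.4 against 2.46 CPM, 2.82 ± 0.18), Sstr2 (52.6 against 10.4 CPM, 2.34 ± 0.18) and Cckbr, the brain receptor for cholecystokinin (43.99 against 10.2 CPM, 2.10 ± 0.14), were likewise higher. Receptors of neuropeptide Y were higher in the hippocampus, with Npy1r at -0.78, Npy2r at -0.89 and Npy5r at -0.93, opposite in direction to the peptide gene itself. The somatostatin receptors were divided between Sstr2 in the BLA and Sstr4 in the hippocampus (9.22 against 18.4 CPM, -0.99 ± 0.13). The oxytocin receptor Oxtr (15.8 against 8.67 CPM, 0.86 ± 0.13) was higher in the BLA by less than 2-fold. For the CRH receptor Crhr1 (14.6 against 11.9 CPM, 0.29 ± 0.11) the call was lost in 13 of the 15 fits that leave out libraries.

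Of 39 receptors for monoamines, acetylcholine, adenosine and cannabinoids, 23 were called higher in the BLA and 10 higher in the hippocampus (median 0.642). Dopamine receptors differed by subtype. Drd1 was at 20.02, 33.1, 45.5, 43.4 and 36.3 CPM in the BLA and 6.59, 6.18, 6.21, 3.99 and 5.12 CPM in the hippocampus (log2 fold change 2.67 ± 0.20 SE, adjusted p = 1.78e-07). Drd2 was at 26.8 against 3.18 CPM (3.08 ± 0.33), and Drd3 at 1.38 against 0.0537 CPM. Drd5, the second receptor that couples dopamine to cAMP production, went the other way, at 1.84, 1.63, 3.48, 1.55 and 1.55 CPM in the BLA replicates against 13.2 to 18.2 CPM in the hippocampal replicates (log2 fold change -2.92 ± 0.21 SE, adjusted p = 9.46e-08). All BLA libraries were below all hippocampal ones for Drd5. Drd1, Drd2 and Adora2a stand on the striatal list, whose level in each library is given above.

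Serotonin receptors split by subtype too. Htr1d (8.46 against 0.356 CPM, 4.59 ± 0.41), Htr2c (132 against 43.00 CPM, 1.62 ± 0.15) and Htr1b (29.8 against 11.4 CPM, 1.39 ± 0.090) were higher in the BLA. Htr1a, the receptor that hyperpolarizes pyramidal neurons, was at 9.09, 6.86, 9.76, 10.9 and 10.8 CPM in the BLA and 42.1, 36.5, 37.8, 34.8 and 37.1 CPM in the hippocampus (log2 fold change -1.99 ± 0.11 SE, adjusted p = 1.07e-08), and Htr5b was at 0.391 against 4.96 CPM (-3.69 ± 0.26) and Htr4 at 12.02 against 20.9 CPM (-0.80 ± 0.10). Htr2a (-0.11) was not called. For acetylcholine, the muscarinic receptors Chrm4 (1.19), Chrm5 (1.14) and Chrm2 (1.13) were higher in the BLA. Chrm3 was higher in the hippocampus (14.1 against 64.2 CPM, -2.19 ± 0.12). Chrm1 (-0.18) was not called in the main fit. It was called higher in the hippocampus with DESeq2 (adjusted p = 0.039), limma-voom (0.0407) and every other scaling factor and count filter tried. The same call was made in trained controls (adjusted p = 0.0291) and in 4 of the 15 fits without libraries (0.0269 to 0.0485). The nicotinic subunits Chrna5 (-3.54), Chrna3 (-2.56) and Chrna7 (-0.47) were higher in the hippocampus. Chrna2, a nicotinic subunit listed with the interneuron genes below, was higher in the BLA (2.11). Of 5 noradrenaline receptors, all called, 4 were higher in the BLA, from Adra1a (1.01) to Adra2c (0.64), and Adra1d was higher in the hippocampus (13.04 against 72.6 CPM, -2.48 ± 0.16). The cannabinoid receptor Cnr1 was at 283 against 217 CPM (0.38 ± 0.072), a call lost in trained controls (adjusted p = 0.0916).

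Fast transmitter receptors differed in their subunits. Of 24 glutamate receptor genes, 12 were called higher in the BLA and 9 higher in the hippocampus, with a median near that of all genes. Grin2a, the GluN2A subunit of NMDA receptors, was at 143, 153, 130.3, 138 and 142 CPM in the BLA and 408, 381, 402, 449.6 and 395 CPM in the hippocampus (log2 fold change -1.53 ± 0.059 SE, adjusted p = 3.09e-10). Grin2b, for GluN2B, was at 398 against 663 CPM (-0.74 ± 0.10), while Grin1, the subunit that all NMDA receptors share, was not called (0.08 ± 0.049; called higher in the BLA of trained controls, adjusted p = 0.0429). Grin3a (95.6 against 48.2 CPM, 0.99 ± 0.12) and Grin2d (0.55) were higher in the BLA. Among AMPA receptor subunits Gria1 (-0.56) and Gria2 (-0.32) were higher in the hippocampus and Gria3 (0.32) and Gria4 (0.54) in the BLA. Kainate subunits were split between Grik3 (1.12) in the BLA and Grik4 in the hippocampus, and the metabotropic receptor Grm8 had the largest difference of the list (41.95 against 9.88 CPM, 2.09 ± 0.12).

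Of 16 GABA receptor genes, 5 were called higher in the BLA and 6 higher in the hippocampus, and the median (-0.027) and the mean (0.585) of the list differed in sign. Gabra5, the subunit of extrasynaptic receptors in pyramidal cells, was at 49.6, 50.6, 64.9, 54.3 and 51.3 CPM in the BLA and 149.9, 162, 168, 202 and 207 CPM in the hippocampus (log2 fold change -1.72 ± 0.10 SE, adjusted p = 1.55e-08). Gabra3 was higher in the BLA (219.8 against 70.5 CPM, 1.64 ± 0.080). Gabrq, the theta subunit, was at 13.2, 14.9, 12.2, 16.4 and 12.5 CPM against 1.17, 0.853, 0.960, 0.196 and 0.577 CPM (log2 fold change 4.21 ± 0.32 SE, adjusted p = 1.61e-07), and Gabre, the epsilon subunit, at 3.29 against 0.171 CPM (4.23 ± 0.33). Gabrq and Gabre were both at most 1.17 CPM in every hippocampal library. The GABA-B receptor genes Gabbr1 (0.12) and Gabbr2 (0.07) were not called with edgeR. Gabbr1 was called higher in the BLA with DESeq2 and limma-voom (adjusted p = 0.0356 in both), without BLA replicate 1 (0.00759) and in trained controls (0.0137).

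Of 18 genes for the synthesis and transport of glutamate and GABA, 6 were called higher in the BLA and 5 in the hippocampus (median -0.124). Slc32a1, the vesicular GABA transporter, was at 199 ± 39.4 against 70.3 ± 2.94 CPM (log2 fold change 1.501 ± 0.11 SE, adjusted p = 1.41e-07), Gad2 at 361 against 160.2 CPM (1.17 ± 0.11) and Gad1 at 465 against 320.3 CPM (0.54 ± 0.061). These genes are active in striatal and intercalated neurons as well as in interneurons, and the striatal list was higher in the same libraries, as given above. Slc17a7, the vesicular glutamate transporter of cortical neurons, was at 1543, 1650.0, 1354, 1361 and 1635 CPM in the BLA and 1218, 1145, 1260.0, 1214 and 1278 CPM in the hippocampus (log2 fold change 0.30 ± 0.066 SE, adjusted p = 0.0019). That call was lost with all 39 libraries (adjusted p = 0.449) and in trained controls (0.625). Camk2a was at 2726 against 3809.5 CPM (-0.48 ± 0.077). Slc17a6 was called higher in the hippocampus (-0.60), but not with DESeq2 (adjusted p = 0.0711), in trained controls (0.201) or in 9 of the 15 fits without libraries (0.0696 to 0.182).

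Of 26 interneuron genes, 12 were called higher in the BLA and 7 in the hippocampus. Chrna2 (2.11), Sox6 (0.51) and Lhx6 (0.34) were on the BLA side besides Sst and Npy. Pvalb, the calcium buffer of fast-spiking interneurons, was at 26.1, 12.3, 21.8, 12.6 and 17.5 CPM in the BLA and 29.1, 25.7, 33.1, 27.1 and 32.2 CPM in the hippocampus (log2 fold change -0.71 ± 0.18 SE, adjusted p = 0.00505). The ranges overlapped slightly for Pvalb, through BLA replicate 1. Reln (26.6 against 63.3 CPM, -1.25 ± 0.12) and Ndnf (10.9 against 29.2 CPM, -1.42 ± 0.10), which mark neurogliaform and related cells, were higher in the hippocampus, whereas Vip (0.36), Calb2 (-0.10) and Erbb4 (0.09; called higher in the BLA without BLA replicate 1, adjusted p = 0.0301) were not called.

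Ion channels divided by family member, near evenly in number. Of 51 potassium and HCN channel genes, 17 were called higher in the BLA and 20 higher in the hippocampus, and of 30 calcium and sodium channel genes 10 and 14. Kcng1, a silent subunit that modifies Kv2 channels, was at 158 against 41.95 CPM (1.92 ± 0.12), the pacemaker channel Hcn4 at 14.3 against 3.60 CPM (1.99 ± 0.17) and Kcnf1 at 192 against 74.2 CPM (1.38 ± 0.11), all higher in the BLA. Kcnj6, a GIRK subunit, was at 102 ± 10.9 against 244 ± 12.2 CPM (log2 fold change -1.27 ± 0.072 SE, adjusted p = 1.18e-08) and its partner Kcnj3 at 107 against 194 CPM (-0.85 ± 0.072), both higher in the hippocampus. The T-type calcium channel Cacna1g (1.09) and the auxiliary subunits Cacng4 (1.63) and Cacna2d2 (1.43) were higher in the BLA, and the AMPA receptor auxiliary subunit Cacng8 (-0.87) and the sodium channel subunit Scn3b (-0.94) in the hippocampus. Scn1a (-0.57) and Scn8a (-0.53) were higher in the hippocampus and Scn2a (0.28) in the BLA.

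Adhesion molecules and synapse organizers, which match pre- and postsynaptic partners, were called in both directions. For cadherins and protocadherins, 9 of 21 were called higher in the BLA, led by Cdh4 (56.9 against 10.7 CPM, 2.41 ± 0.089), Cdh22 (1.63) and Pcdh10 (379.6 against 129 CPM, 1.55 ± 0.089), and 6 higher in the hippocampus, led by Cdh12 (4.49 against 22.6 CPM, -2.33 ± 0.15) and Pcdh20 (42.8 against 135 CPM, -1.66 ± 0.14). Of 21 ephrin and Eph receptor genes, 5 were called higher in the BLA (among them the ligand Efna5, 1.00) and 9 in the hippocampus (among them the receptors Epha4, 140.3 against 391 CPM, -1.48 ± 0.076, and Epha6, -1.24). Of 29 synapse organizers 13 were called higher in the BLA and 10 in the hippocampus. The C1q-like genes went apart: C1ql3 was at 626 ± 116 against 191 ± 20.5 CPM (log2 fold change 1.71 ± 0.12 SE, adjusted p = 7.26e-08) and C1ql2 at 4.72 ± 3.003 against 70.1 ± 18.3 CPM (log2 fold change -3.90 ± 0.32 SE, adjusted p = 3.89e-07). BLA replicate 1 held 9.99 CPM of C1ql2 against 2.68 to 4.08 CPM in the other BLA libraries. Lypd1, a modulator of nicotinic receptors, was at 623 against 164 CPM (1.93 ± 0.17). Nrxn2 (0.81) was higher in the BLA, and Nrxn3 (0.06) was not called. Of the leucine-rich organizers, Lrrtm3 (1.15) was higher in the BLA and Lrrtm1 (-1.03) in the hippocampus.

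Of 18 genes of the perineuronal net and matrix, 4 were called higher in the BLA and 5 in the hippocampus. Tnc (17.3 against 6.18 CPM, 1.48 ± 0.11) and the protease Adamts5 (6.26 against 1.59 CPM, 1.98 ± 0.19) were higher in the BLA. Acan, the core proteoglycan of the nets, was at 2.62 against 5.05 CPM (-0.94 ± 0.13) and the link protein Hapln1 at 17.1 against 35.00 CPM (-1.03 ± 0.089), both higher in the hippocampus, while Hapln4 (0.42) was called higher in the BLA, a call lost in trained controls (adjusted p = 0.311). Bcan (-0.02) and Tnr (-0.11) were not called, and Ncan (0.16) was called higher in the BLA without BLA replicate 1 alone among single libraries (adjusted p = 0.00586) and in trained controls (0.039).

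Receptors for corticosteroids and estrogens differed in opposite directions. Nr3c2, the mineralocorticoid receptor, which binds corticosterone with high affinity, was at 48.2, 53.1, 53.7, 42.9 and 45.99 CPM in the BLA and 210.0, 203, 202, 244 and 221 CPM in the hippocampus (log2 fold change -2.15 ± 0.077 SE, adjusted p = 1.91e-10). The lowest hippocampal library was well above the highest BLA library. Nr3c1, the glucocorticoid receptor, differed less (92.2 against 118 CPM, -0.35 ± 0.066), and Hsd11b1, the enzyme that regenerates active glucocorticoid, was at 3.50 against 18.5 CPM (-2.41 ± 0.17). The estrogen receptors Esr2 (1.94 against 0.148 CPM, 3.69 ± 0.32) and Esr1 (5.90 against 3.13 CPM, 0.92 ± 0.15) were higher in the BLA. Fkbp5 (-0.44) and Sgk1 (-0.44), targets of the glucocorticoid receptor, were lower in the BLA, with the call of Sgk1 lost without hippocampal replicate 4 (adjusted p = 0.0514), and Tsc22d3 (-0.10) and Per1 (0.09) were not called. In all, 2 of 13 genes were called higher in the BLA and 5 in the hippocampus.

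Immediate early genes, whose transcripts rise within minutes of neuronal activity, were called in 9 of 24 cases in these untrained mice, beside 47.9% of all genes. Of the 9, 5 were higher in the BLA and 4 higher in the hippocampus. Fosb was at 13.8, 29.6, 29.2, 47.8 and 25.3 CPM in the BLA and 6.15, 8.84, 9.44, 19.9 and 11.7 CPM in the hippocampus (log2 fold change 1.38 ± 0.32 SE, adjusted p = 0.00258), and Nptx2 at 87.04 against 28.8 CPM (1.60 ± 0.15). Npas4, a factor specific to neurons, was at 13.9 against 9.38 CPM (0.57 ± 0.20), a call lost in 8 of the 15 fits without libraries (adjusted p = 0.0513 to 0.124). Jun (-0.88), Btg2 (-0.73) and Nr4a2 (-1.14) were higher in the hippocampus. Fos was at 6.28, 20.6, 20.2, 33.04 and 15.3 CPM in BLA replicates 1 to 5 and 5.47, 13.5, 13.1, 22.6 and 11.3 CPM in the hippocampal replicates (log2 fold change 0.53 ± 0.38 SE, adjusted p = 0.263), so the ranges overlapped and the call was not made. In both regions replicate 1 was the lowest and replicate 4 the highest for Fos, Fosb, Junb, Egr1 and Nr4a1, genes chosen for this statement after their values were seen. A further fit used a replicate block, which compares libraries of the same number. With it, Fos (adjusted p = 0.00059) and Junb (0.000563) were called higher in the BLA. The 9 calls above come from the fit without that block. The labels do not say whether libraries of the same number came from the same mouse. Arc, which regulates AMPA receptor traffic, was at 36.2, 98.1, 82.4, 108 and 60.8 CPM against 83.2, 121, 143, 138 and 93.6 CPM (log2 fold change -0.58 ± 0.24 SE, adjusted p = 0.0608), and was called higher in the hippocampus with limma-voom (adjusted p = 0.0397), without BLA replicate 2 (0.0475), BLA replicate 4 (0.0259) or hippocampal replicate 1 (0.0352), without both libraries of number 1 (0.0189), and in trained controls (0.016). The replicate block gave that call for Arc as well (adjusted p = 0.00087).

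Genes of amyloid and tau biology, the subject of the wider study, differed by small amounts. Of 25 tested, 12 were called higher in the BLA and 6 in the hippocampus, none by 2-fold. The endogenous App gene was at 2069, 2179, 2000.0, 2126 and 2324 CPM in the BLA and 1819, 1627, 1728, 1774 and 1881 CPM in the hippocampus (log2 fold change 0.28 ± 0.057 SE, adjusted p = 0.00119), a 1.21-fold difference with no overlap. Mapt, which encodes tau, was at 681, 637, 555, 586 and 595 CPM against 543, 521, 510.0, 529 and 523 CPM (log2 fold change 0.22 ± 0.057 SE, adjusted p = 0.00632), a 1.16-fold difference that was not called in trained controls (adjusted p = 0.0917). The tau kinase Cdk5 (0.54) and its activator Cdk5r1 (0.59) and the phosphatase subunit Ppp2r2b (0.69) were higher in the BLA. The beta-secretase Bace1 (0.22) was higher in the BLA, and Sorl1 (-0.43) and Picalm (-0.39) were higher in the hippocampus. The call of Apoe on that side (-0.19) was lost in 8 of the 15 fits without libraries (adjusted p = 0.0521 to 0.174) and in trained controls (0.256). Prnp (0.11), Adam10 (-0.10) and Gsk3b (0.09) were not called.

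**Figure D3:**
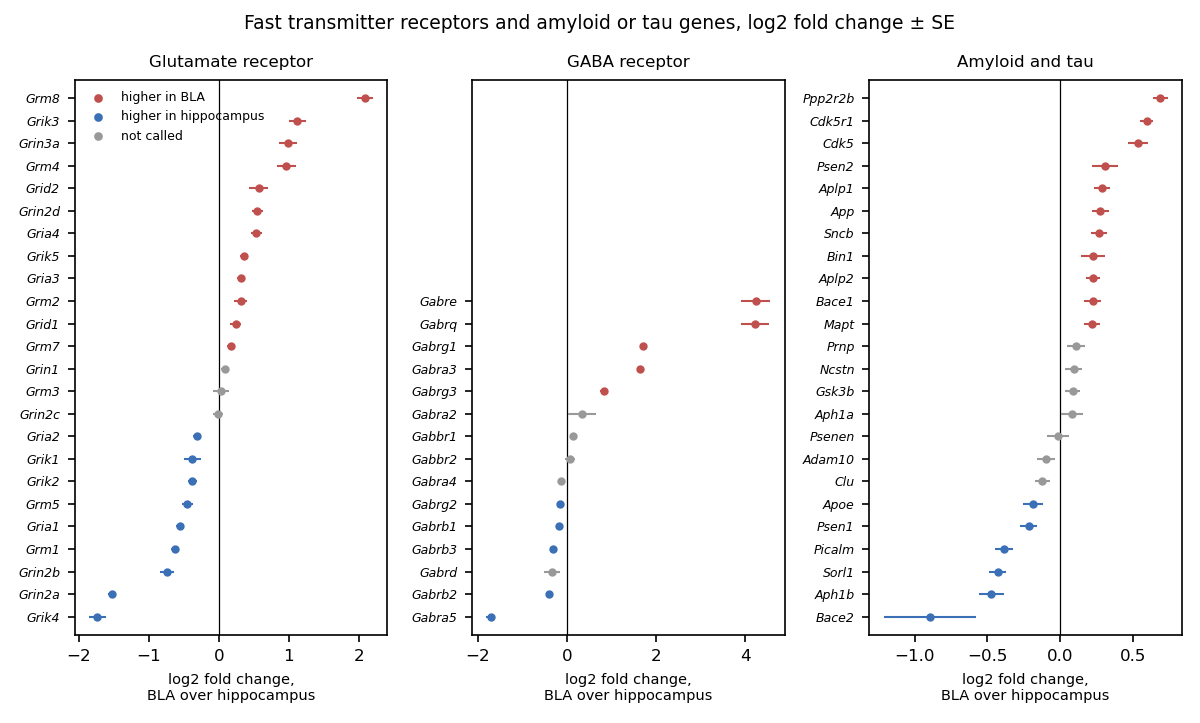
Log2 fold change (BLA over hippocampus) with its SE for 24 glutamate receptor genes, 15 GABA receptor genes and 24 amyloid and tau genes (1 tested member of each of these lists is not shown), from 5 against 5 libraries, coloured by the call (the horizontal scales differ). Grin2a, Grik4 and Gabra5 lie farthest on the hippocampal side, Grm8, Gabre and Gabrq on the BLA side, and no amyloid or tau gene reaches a log2 fold change of 1.

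Myelin genes were lower in the BLA without exception among the 18 tested, with a median of -1.052, and 12 of them by 2-fold or more. Mbp, the myelin basic protein gene, was at 982, 814, 1040.0, 952 and 1060.0 CPM in the BLA and 2479, 1513, 1511, 1997 and 2249 CPM in the hippocampus (log2 fold change -1.01 ± 0.13 SE, adjusted p = 2.79e-05). Hippocampal replicates 1, 4 and 5 were higher than replicates 2 and 3. Opalin (-1.53), Ermn (-1.35) and Mobp (318 against 719 CPM, -1.18 ± 0.14) had larger differences. Of 10 genes listed for oligodendrocyte precursors, 5 were called higher in the BLA, such as Lhfpl3 (0.70) and Pdgfra (0.22; lost in 6 of the 15 fits without libraries), and 3 in the hippocampus. The latter, Enpp6 (-1.34), Bcas1 (-1.10) and Vcan (-0.70), include genes of newly forming oligodendrocytes. Gpr17, on the same list, was called the other way, at 55.5 against 43.5 CPM (0.35 ± 0.12). Its call was lost in 7 of the 15 fits without libraries (adjusted p = 0.0534 to 0.102).

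Of 20 astrocyte genes, 4 were called higher in the BLA and 11 higher in the hippocampus. Gfap, the intermediate filament gene, was at 83.2, 40.2, 61.3, 35.1 and 28.6 CPM in the BLA and 484, 424, 365, 364 and 387 CPM in the hippocampus (log2 fold change -3.03 ± 0.24 SE, adjusted p = 3.26e-07), and the groups lay far apart. The water channel Aqp4 was at 71.1 against 168 CPM (-1.24 ± 0.11), while the glutamate transporter Slc1a2 (-0.14) was not called, and Mfge8 (0.51) was higher in the BLA. The calls of Slc1a3 (-0.15) and S100b (0.36) were lost in trained controls (adjusted p = 0.538 and 0.0642), and that of Aldh1l1 (0.22) in 4 of the 15 fits without libraries (0.0508 to 0.114). The summed astrocyte list, Gfap included, was at 5762 to 6129 CPM in the BLA and 6918 to 7553 CPM in the hippocampus. Microglial genes were close in both regions, with 1 of 19 called higher in the BLA (Aif1, 0.79) and 3 higher in the hippocampus (P2ry12 -0.42, Gpr34 -0.36, Sall1 -0.31), shares below those of all genes. Of the latter, Sall1 (adjusted p = 0.836) and Gpr34 (0.0542) were not called in trained controls, and Gpr34 not in 6 and P2ry12 not in 2 of the 15 fits without libraries. Cx3cr1 (0.15 ± 0.069), Csf1r (0.03 ± 0.071) and Trem2 (0.18 ± 0.11) were not called, but in trained controls Cx3cr1 (adjusted p = 0.0395) and Csf1r (0.0136) were called higher in the BLA, as was Cx3cr1 without BLA replicate 1 (0.0214). Of 18 endothelial and pericyte genes, 16 were called higher in the hippocampus, mostly by little (median -0.507), with Rgs5 at 58.8 against 92.1 CPM (-0.65 ± 0.11) and Acta2 at 2.47 against 6.25 CPM (-1.34 ± 0.25; -0.605 and not called in trained controls), whereas Cldn5 (-0.07) was not called. Of 5 blood genes, 3 were called higher in the hippocampus.

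Of 12 genes of neurogenesis tested, 3 were called higher in the BLA and 4 higher in the hippocampus. Neurod1 and Prox1, which also mark mature granule cells, were higher in the hippocampus, as was the proliferation gene Mki67 (1.02 against 1.71 CPM, -0.73 ± 0.24), whose call was lost in 5 of the 15 fits without libraries (adjusted p = 0.0508 to 0.0651). Dcx, the doublecortin gene of migrating neurons, was higher in the BLA (23.6 against 14.3 CPM, 0.72 ± 0.075), with Sox11 (0.62) and Hes5 (1.30).

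Genes of oxidative phosphorylation encoded in the nucleus were called higher in the BLA for 14 of 20 tested and higher in the hippocampus for none, by small amounts (median 0.242). Cox4i1 was at 499 against 369 CPM (0.44 ± 0.11) and Sdha at 494 against 377 CPM (0.39 ± 0.051), and Cox7c had the largest difference (0.72). BLA replicate 1 was the highest BLA library for Cox5a (191 CPM against 113 to 135 CPM) and Ndufv1 (222 CPM against 152 to 171 CPM). Of 13 genes encoded in mitochondrial DNA, 6 were called higher in the BLA. They were COX2, COX3, ATP6, ATP8, ND3 and ND4L, and each stayed at or under 62.3 CPM in every library. COX1, which was not called, was at 10477 against 12197 CPM. Shares of windows held by other genes were not available for COX1, COX2, COX3 and ATP6, so the check for close copies did not cover them. Without BLA replicate 5 the call of ATP8 was lost (adjusted p = 0.0516). COX1 (-0.22), CYTB (-0.14) and ND1 (-0.32) were not called, but without BLA replicate 5 COX1 (0.0472) and ND1 (0.0187) were called higher in the hippocampus. The lysates had been cleared of mitochondria by centrifugation before sampling, per the labels' protocols. Of 26 cytosolic ribosomal protein genes, 3 were called higher in the BLA and 2 higher in the hippocampus, and most have close copies elsewhere in the genome. Rpl22, the gene that carries the tag, was at 65.04 against 80.5 CPM (-0.31 ± 0.068).

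Beyond the lists, the largest differences by the naming rule included further genes of each side. Higher in the BLA were Chodl, a membrane lectin gene of some peptidergic neurons (8.61 against 0.376 CPM, 4.50 ± 0.19), Ankfn1 (18.7 against 0.847 CPM, 4.46 ± 0.23), Arhgap36 (10.7 against 0.536 CPM, 4.31 ± 0.25) and Sh3rf2 (5.13 against 0.218 CPM, 4.54 ± 0.59). For Ankfn1 BLA replicate 1 was lowest, at 10.8 CPM against 19.3 to 21.8 CPM. Higher in the hippocampus were the thrombospondin Thbs4 (0.196 against 12.2 CPM, -5.99 ± 0.28), the axon guidance receptor Robo3 (0.242 against 7.73 CPM, -4.98 ± 0.18), the protease inhibitor A2m (0.125 against 6.39 CPM, -5.64 ± 0.40), the keratin Krt2 (0.265 against 9.75 CPM, -5.22 ± 0.38; -5.94 without BLA replicate 1), coagulation factor F5 (0.329 against 8.39 CPM, -4.67 ± 0.49) and Lrrc17 (0.0523 against 7.64 CPM, -7.20 ± 0.46; -7.95 without BLA replicate 4), which was near 0 in every BLA library of the series. Ecrg4, a peptide precursor of choroid plexus and meninges, was at 0.0912 against 7.18 CPM, and its log2 fold change of -6.38 became -7.90 without BLA replicate 1.

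**Figure D4:**
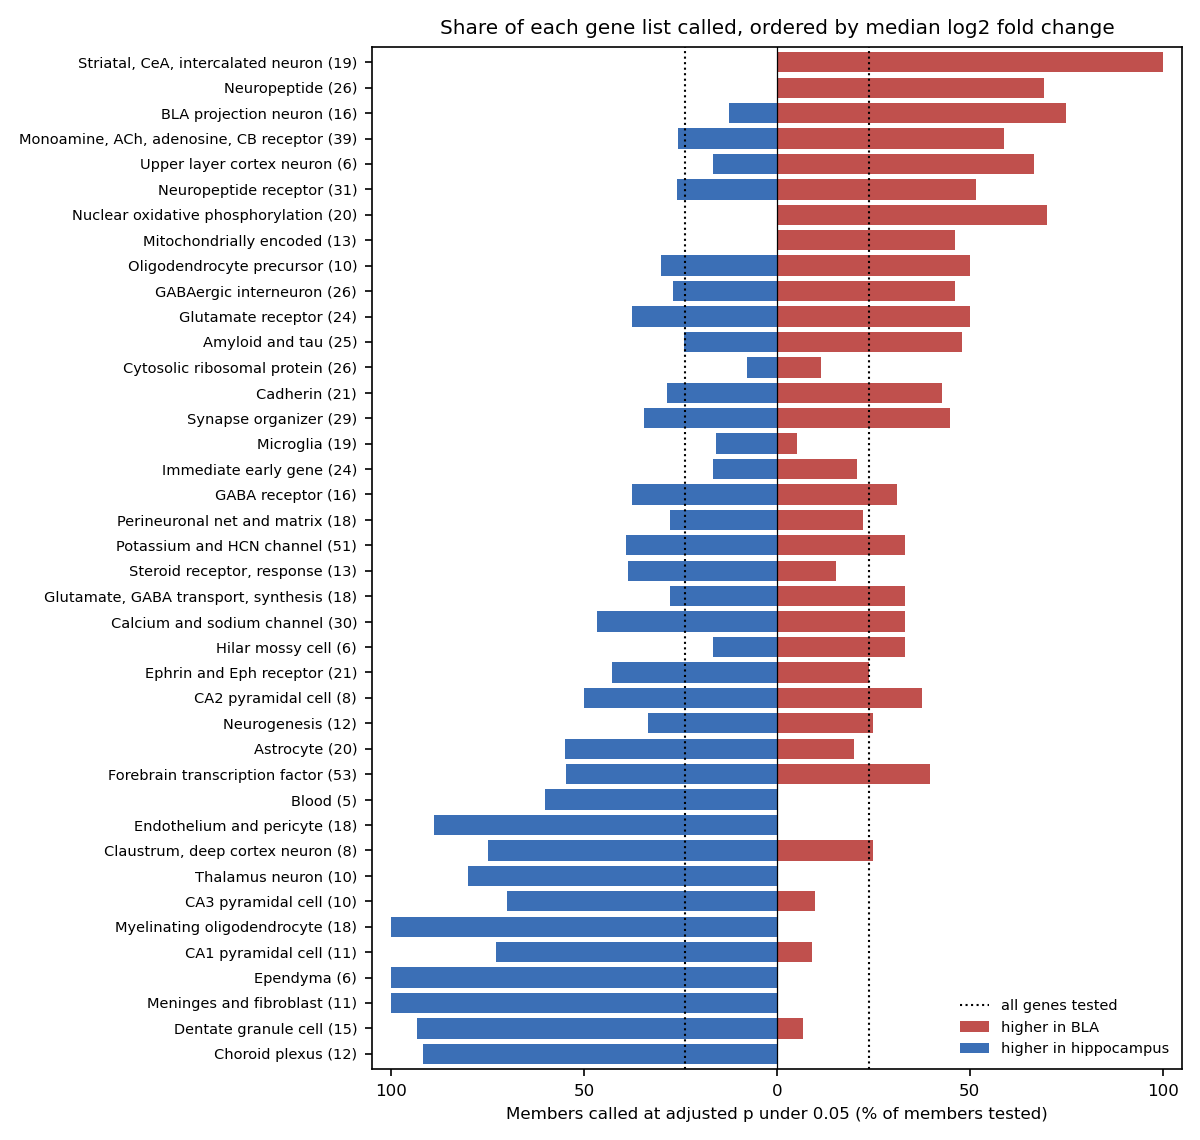
Share of the tested members of each of the 40 lists (number tested in brackets) called higher in the BLA (red, to the right) or higher in the hippocampus (blue, to the left), ordered by the median log2 fold change. Dotted lines mark the shares over all genes tested, 24.0% and 23.9%: the striatal list (19 of 19), the neuropeptide list (18 of 26) and the myelin list (18 of 18) lie far beyond them, and the microglial list lies inside both.

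The regional calls were then read in the trained controls, different mice that had gone through cued fear conditioning before they were killed. Of the 684 protein-coding genes at 2-fold or more higher in the BLA of naive mice, 562 (82.2%) were so in trained mice, which is also 82.2% of the 684 called there. On the hippocampal side 710 of 1024 (69.3%) were shared, 81.1% of those called in trained mice. At any size of change, 3211 of 4011 protein-coding genes (80.1%) were called higher in the BLA in both sets and 3217 of 4147 (77.6%) higher in the hippocampus. No gene called in naive controls was called in the opposite direction in trained controls. The calls of 30 of the 308 genes named and called were lost in trained controls. Among the named genes Adora2a, Drd2, Tac1, Meis1, Chrna3, Dcn, Six3, Ppp1r1b, Isl1, Sh3rf2, Htr1d, Gabre, Esr2, Trh, Lum, Zic1, Tcf7l2, Iyd, Lct, Thbs4, Robo3, A2m, Krt2, F5, Rpl10-ps5 and Lrrc17 kept their sign but differed in size by over 1.5 times between the sets. The 2 sets share the dissection, the RNA input and the counting of each region.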

How the data were processed

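Input lysates of RiboTag tissue gave poly(A) libraries, read as 2 × 50 bp pairs, per the labels' protocols. The authors deposited gene counts, as whole numbers per gene symbol without normalization, in 1 table per region. Trimmomatic 0.39 and genome build mm39 are named in the submitters' processing notes; for aligner, counter, annotation and strand: not given in the sources used here. Groups come from the tissue, genotype and training labels.

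The tables were joined on gene symbol. The filterByExpr filter (at least 10 counts in enough libraries, 15 in total) was applied and genes were tested in R 4.3.3 with edgeR 4.0.16 (TMM factors, quasi-likelihood F test, two-sided, Benjamini-Hochberg over all genes tested, threshold 0.05); SE values are the size of the log2 fold change divided by √F. Levels are CPM with TMM factors. The script recovered known changes in simulated data. Biotypes came from RefSeq GRCm38.p6 by symbol or synonym (48918 of 50559 symbols) and shares of 50-base transcript windows held by other genes from GENCODE M21. Alternatives were DESeq2 1.42.0, limma 3.58.1 (voom), RLE and upper quartile factors, library totals, other filters, a replicate block, all 39 libraries, thinned hippocampal counts, trained controls and leaving out libraries; 2 restricted to protein-coding genes or genes with under 10% shared windows were added after seeing the data.

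The comparison, the 40 gene lists and their members were chosen with earlier results of these data known. Genes were named by rule: the 12 with the largest change in each direction with at least 5 CPM where higher and no overlap, up to 3 called members per list and direction at 1 CPM or more, and the highest member of each list. In all 357 genes, 228 by the rule and 129 besides, were run through the alternatives. These other list members are named to show a family or an exception and were chosen after their values were seen, as was the promoter motif. Some list members are counted in their lists and not reported here by name. All value columns of both tables were mapped to samples.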

Additional observations from a re-analysis of the deposited data

Results flagged for a closer look

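Groups of 5 libraries were checked for 1 library whose gap to its nearest neighbour was over 0.71 of the whole range, Dixon's 95% limit. Of 700 groups, 63 (9.0%) held such a library. By chance that limit flags about 1 in 20 groups, but 129 of the named genes were chosen after their values were seen. The 9.0% can therefore not be set against that rate. In 24 of the 63 the library was BLA replicate 1. Among the genes given here, Kcnj13 (42.1%), Rarres2 (28.4%), Lefty1 (17.9%) and Rpl41 (17.6%) share 50-base transcript windows with other genes, which makes their values uncertain. BLA replicate 1 was highest for C1ql2 (9.99 CPM, others 2.68 to 4.08), Cartpt (18.5 CPM, others 8.07 to 10.9), Cdk5 (116 CPM, others 91.05 to 97.4), Cox5a (191 CPM, others 113 to 135) and Ecrg4 (0.337 CPM, others 0.0137 to 0.0370). 5 further genes with that library highest were Iyd (0.844 CPM, others 0.0330 to 0.173), Kcnj13 (0.375 CPM, others 0 to 0.0960), Krt2 (0.712 CPM, others 0.0659 to 0.247), Mfge8 (219.5 CPM, others 184 to 192) and Ndufv1 (222 CPM, others 152 to 171). 5 further genes with that library highest were Rarres2 (7.48 CPM, others 6.03 to 6.43), Rpl22 (75.8 CPM, others 60.2 to 64.4), Rpl41 (166 CPM, others 62.2 to 83.5), Rps3 (497 CPM, others 288 to 342) and Lars2 (708 CPM, others 127 to 294). 2 further genes with that library highest were Malat1 (611 CPM, others 254 to 347) and Rn18s-rs5 (9108 CPM, others 1984 to 3393). BLA replicate 1 was lowest for Ankfn1 (10.8 CPM, others 19.3 to 21.8), Cdh4 (49.5 CPM, others 57.6 to 60.7), Scn3b (117 CPM, others 141 to 151), Adra2c (34.9 CPM, others 42.5 to 43.8) and Chrm2 (15.8 CPM, others 27.1 to 29.7). 2 further genes with that library lowest were Chrna7 (10.6 CPM, others 14.2 to 15.2) and Crhr1 (10.5 CPM, others 15.2 to 16.3). BLA replicate 2 was highest for Npy5r (4.04 CPM, others 3.31 to 3.50), Rasgrf2 (132 CPM, others 104 to 112), Cacna1g (159 CPM, others 119.9 to 129) and Grin1 (529.9 CPM, others 479.6 to 488). BLA replicate 2 was lowest for Opalin (5.25 CPM, others 7.87 to 8.87). BLA replicate 3 was highest for Cacna2d4 (1.99 CPM, others 0.637 to 0.962), Drd5 (3.48 CPM, others 1.55 to 1.84) and Zic1 (9.17 CPM, others 4.21 to 4.75). BLA replicate 4 was highest for Nxph3 (24.8 CPM, others 15.3 to 17.8). BLA replicate 5 was highest for COX2 (62.3 CPM, others 44.8 to 49.6), Folr1 (0.0370 CPM, others 0) and Zfp605 (44.03 CPM, others 18.2 to 19.98). BLA replicate 5 was lowest for Isl1 (0.981 CPM, others 3.50 to 4.02) and Fcrls (7.66 CPM, others 19.3 to 23.99). Hippocampal replicate 1 was highest for Drd2 (4.33 CPM, others 2.69 to 3.11), Lars2 (3476 CPM, others 44.6 to 101), Malat1 (1643 CPM, others 487 to 796) and Rn18s-rs5 (55592 CPM, others 487 to 1635). Hippocampal replicate 1 was lowest for Cdh12 (20.8 CPM, others 22.8 to 23.6), Cox7c (21.2 CPM, others 25.3 to 26.7), Grik4 (44.9 CPM, others 51.9 to 54.4) and Kcng2 (17.97 CPM, others 24.4 to 25.7). Hippocampal replicate 2 was highest for Lhx9 (25.8 CPM, others 19.3 to 20.96), Rasgrf2 (132 CPM, others 101 to 107) and Tshz1 (32.9 CPM, others 27.9 to 29.2). Hippocampal replicate 2 was lowest for Fibcd1 (98.9 CPM, others 151 to 165), Lefty1 (4.12 CPM, others 6.01 to 6.66) and Sstr4 (14.6 CPM, others 18.8 to 19.6). Hippocampal replicate 3 was highest for Dlx6 (2.79 CPM, others 1.89 to 2.13). Hippocampal replicate 3 was lowest for Pdgfra (48.7 CPM, others 52.3 to 53.7). Hippocampal replicate 4 was highest for Lrrtm1 (114 CPM, others 97.1 to 102) and Bdnf (62.7 CPM, others 34.3 to 41.7). Hippocampal replicate 4 was lowest for Nr2f2 (25.1 CPM, others 32.3 to 34.4) and Cacna1g (51.5 CPM, others 62.9 to 65.5). Hippocampal replicate 5 was highest for Cartpt (1.67 CPM, others 1.07 to 1.23), Isl1 (0.122 CPM, others 0 to 0.0178) and Zfp605 (41.04 CPM, others 19.9 to 22.3). Hippocampal replicate 5 was lowest for Fcrls (6.87 CPM, others 16.6 to 18.8) and Rps3a1 (13.6 CPM, others 67.4 to 69.8).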

How the results depend on the processing

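The number of genes called was 10915 with edgeR, 11559 with DESeq2, 11115 with limma-voom, 10523 with hippocampal counts thinned to the BLA depth and 10404 in the trained controls. Leaving out 1 library gave 9836 to 11520 (4929 to 5674 higher in the BLA, 4907 to 5846 higher in the hippocampus; 1566 to 1651 and 1725 to 2087 at 2-fold or more), and leaving out a replicate number in both regions gave 9175 to 11032 (4628 to 5326 and 4547 to 5706; 1463 to 1624 and 1621 to 1909). At 2-fold or more, 803 genes were called in the BLA and 947 in the hippocampus with a filter at a mean of 1 CPM, 688 and 1025 with protein-coding genes alone, and 752 and 1020 with genes that share few windows, since these fits test fewer genes. Library totals gave 4855 against 5578 calls by direction, and no filter gave 5093 against 5985, with the median log2 fold change at -0.101. Of the 308 named genes called, 265 kept their call in each of the 28 alternatives that tested them, and 282 in the fits without libraries. A gene that an alternative did not test counts as kept there, such as C1ql3 in the fit on genes with few shared windows. In trained controls 30 lost it, among them Acta2, Ccn2, Tagln (58.4% of its windows shared), Cacna2d4 (-0.25), Mapt, Slc17a7 and Slc17a6, and 19 genes not called were called in at least 1 alternative. The cause was not tested. Signs turned for genes that were not called in the main comparison. For these genes the log2 fold changes were as follows, with the range over the 15 fits without libraries where one of these turned. Bcan had 0.058 (trained controls), -0.052 to 0.017 without libraries. Bdnf had -0.2382 to 0.0923 without libraries. CYTB had 0.043 (trained controls). Calb2 had 0.0976 (trained controls), -0.3314 to 0.0905 without libraries. Cck had -0.1113 (trained controls), -0.0081 to 0.2465 without libraries. Cldn5 had -0.2321 to 0.0286 without libraries. Csf1r had -0.0002 (library totals), -0.0038 (no filter), -0.0344 to 0.0813 without libraries. Egr1 had -0.107 (trained controls), -0.0695 to 0.3934 without libraries. Gabbr2 had -0.0229 to 0.1593 without libraries. Gbx2 had 0.458 (trained controls). Grp had 0.0784 (trained controls), -0.5222 to 0.0243 without libraries. Homer1 had -0.0186 (library totals), -0.021 (no filter), -0.0049 (upper quartile), -0.0588 to 0.0745 without libraries. Htr2a had 0.3048 (trained controls), -0.1979 to 0.0397 without libraries. Lars2 had 1.0871 (limma-voom), 1.2137 (replicate block), 0.3971 (trained controls), -1.7462 to 2.3819 without libraries. Nr4a1 had -0.2002 to 0.1627 without libraries. Per1 had -0.0393 to 0.2579 without libraries. Pla2g4e had -0.5343 to 0.0119 without libraries. Rasgrf2 had -0.0042 (library totals), -0.0038 (no filter), -0.0392 to 0.0987 without libraries. Rgs16 had 0.0578 (trained controls). Rn18s-rs5 had 0.9356 (limma-voom), 1.1017 (replicate block), -2.1503 to 2.1884 without libraries. Rpl4 had -0.0046 (trained controls). Zfp605 had -0.3593 to 0.2216 without libraries. Without hippocampal replicate 1, Lars2 (adjusted p = 0.000803) and Rn18s-rs5 (0.0026) were called higher in the BLA. Libraries of the regions share numbers, and deviations from the group means correlated by 0.19, 0.2, 0.11, 0.08 and 0.21 between same-numbered libraries over 22797 genes, in each case more than with any other number; this is a hint from the data, not the design. With a replicate block 11262 genes were called (5510 higher in the BLA, 5752 in the hippocampus; 1566 and 1906 at 2-fold or more), and Arc (adjusted p = 0.00087), Fos (0.00059), Junb (0.000563), ND1 (0.0112), Ncan (0.0284), Fcrls (0.00429), Pla2g4e (0.0162) and Rps2 (6.65e-06) gained a call while Hba-a1 (0.0514) lost it. Depth limits statements on genes under about 1 CPM, and intervals of counts cover counting error alone.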

Other observations

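Some genes fell into a low and a high set of libraries by library number, and the sets were alike in both regions. Over genes that reached 5 CPM in both regions, 83 had a gap of at least 1.5-fold between neighbouring libraries in each region, and for 69 of them (83.1%) the same numbers lay above the largest gap in the BLA and in the hippocampus. Pla2g4e, a phospholipase gene, was at 12.1, 2.21, 16.1, 3.26 and 13.2 CPM in BLA replicates 1 to 5 and at 15.1, 3.35, 16.9, 4.52 and 15.7 CPM in hippocampal replicates 1 to 5, high in replicates 1, 3 and 5 of both. Fcrls, a microglial gene, was at 22.1, 19.3, 23.1, 23.99 and 7.66 CPM and 16.8, 16.6, 17.2, 18.8 and 6.87 CPM, low in replicate 5 of both. Zfp605, a zinc finger gene, was at 18.2, 19.4, 19.98, 19.9 and 44.03 CPM and 20.2, 19.9, 20.8, 22.3 and 41.04 CPM, high in replicate 5 of both. Rps2, a ribosomal protein gene (43.0% of its 50-base windows shared with other genes), was at 96.4, 29.8, 32.5, 32.2 and 84.2 CPM and 58.6, 15.1, 15.2, 15.6 and 53.3 CPM, high in replicates 1 and 5 of both. Rps3a1, another such gene (71.0% shared), was at 135, 78.8, 82.8, 96.6 and 9.88 CPM and 69.4, 69.4, 67.4, 69.8 and 13.6 CPM, low in replicate 5 of both. The labels do not say that libraries with the same number came from the same mouse. These genes were chosen after their values were seen, and no test was made.

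Of the 69 genes, 22 were high in replicate 1 alone. They include Rn18s-rs5, at 9108, 3123, 1984, 3393 and 2119 CPM in the BLA and 55590.0, 792, 1635, 487 and 517 CPM in the hippocampus, and Lars2, at 708, 294, 127, 285 and 179 CPM and 3476, 51.3, 101, 44.6 and 45.9 CPM. Malat1, a long noncoding RNA of the nucleus, was at 611, 312, 331, 347 and 254 CPM in the BLA and 1643, 645, 796, 604 and 487 CPM in the hippocampus, with replicate 1 highest in both regions.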
